A study of Mus musculus with 58 samples.

Results

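Kupffer cells, the resident macrophages of the liver, were compared between mice with acute colitis (DSS, 4 libraries) and control mice (Sham6w, 4 libraries). The libraries were taken by their labels, as those whose source is Kupffer cell and whose title is DSS without bile duct ligation or Sham6w, and they are 8 of the 20 Kupffer cell libraries and of the 58 libraries of the series. Both groups are of strain 129SV. The DSS mice are labelled as having acute colitis, induced in this model with dextran sulfate sodium, and no ligation; the Sham6w mice are labelled as controls and stand at 6 weeks in a series on common bile duct ligation (CBDL). No label gives a time for DSS, so a difference in time or age between the groups and the colitis cannot be told apart. The title Sham6w also points to a sham operation, which the DSS titles do not name. Its part cannot be told apart from colitis either. The other groups drawn on here are Kupffer cells 6 weeks after ligation (CBDL6w, 4 libraries), Kupffer cells and monocytes 2 weeks after ligation (CBDL2w, 4 libraries each), and the monocyte-derived macrophages and monocytes of the DSS (4 libraries each) and Sham6w livers (3 libraries each). How the cells were gated is not given in the sources used here. Apart from replicate numbers nothing says that replicates came from separate animals, so the spread that the p-values measure is that between these libraries and may be technical.

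Kupffer cells line the liver sinusoids, where they meet blood that drains the gut. They clear particles, lipoproteins, aged red cells and microbial products through scavenger and complement receptors, recycle iron, and export cholesterol under the nuclear receptor LXR. Their identity is held by factors such as LXR-alpha and MAF, and interferon gamma from lymphocytes turns on in them, as in other macrophages, families of GTPases that attack vacuoles holding intracellular microbes.

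The libraries held 236874 to 326416 reads (DSS) and 285086 to 521954 reads (Sham6w) and detected 11062 to 12368 and 11767 to 13360 genes. Correlations between replicates across genes were 0.882 to 0.908 in DSS and 0.898 to 0.919 in Sham6w. The cells carried Kupffer cell transcripts in both groups: the 22 genes of the resident Kupffer cell list summed to 2812 ± 197 normalized counts in DSS and 3980.1 ± 207 in Sham6w Kupffer cells (SD, n = 4 each), against means of 547 and 785 in the monocytes of the DSS and Sham6w livers. DSS replicate 4 stood apart in hepatocyte transcripts, which took 0.173% of its reads against 0.0173% to 0.0362% in the other DSS libraries and 0.0297% to 0.0908% in Sham6w. Values below are normalized counts per library in the order of replicates 1 to 4, and changes are log2 ± SE, DSS minus Sham6w, on the log2(normalized count + 1) scale, which understates changes of low genes. Rose and fell are written only of genes with a Benjamini-Hochberg adjusted p under 0.05 over all genes tested in limma.

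Of 6159 genes tested, 486 passed (7.89%): 206 rose with colitis (3.34%) and 280 fell (4.55%). Every list count below stands beside these shares. Libraries scaled to equal totals gave 335 higher and 206 lower genes, so the balance of directions depends on the scaling. The median change over all genes tested was −0.07 as deposited and 0.03 under equal totals, and the lists below are read against the first. The lists and their members were chosen with earlier results of these data known. Their counts, medians and sums describe these genes and are no independent support. A gene that fell may reflect fewer cells of a type or less RNA per cell, which bulk libraries cannot tell apart. The largest changes and the list members given with values were taken mainly from genes without overlap between the groups. Lack of overlap in them follows from that choice and is no further result, also where it is stated beside single genes below. Among the genes past the threshold 72 did overlap. Leaving out 1 library at a time left between 214 and 390 genes past the threshold, fewest without Sham6w replicate 2 (214) and DSS replicate 2 (215). Where a named gene did not pass without some library, this is said beside it; for every other gene written as rising or falling, the adjusted p stayed under 0.05 without each of the 8 libraries.

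**Figure D1:**
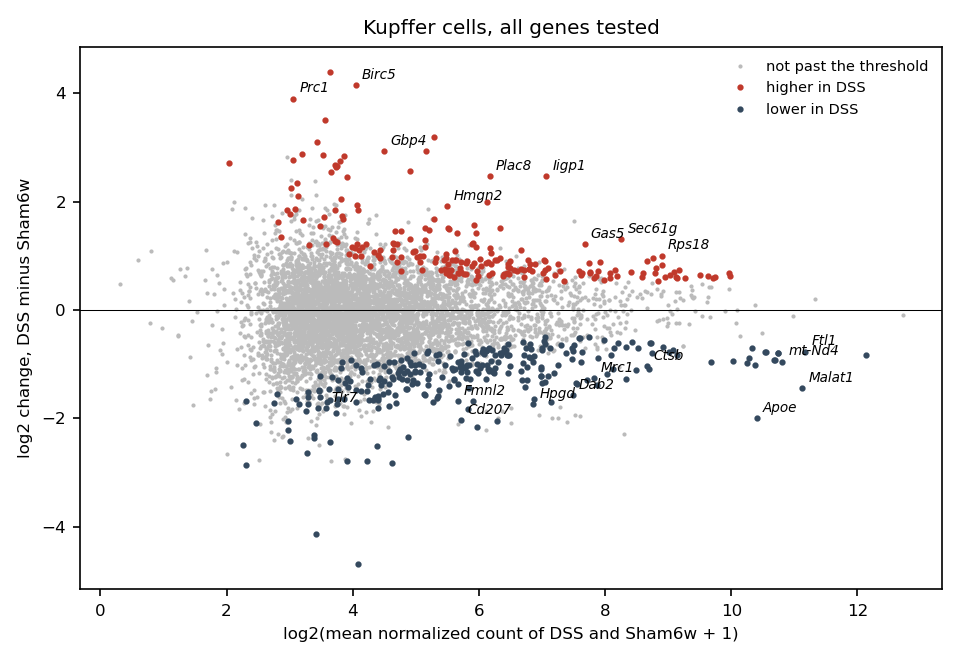
The log2 change of each gene tested, DSS minus Sham6w in Kupffer cells, is plotted against the log2 mean normalized count of both groups. The 206 genes past the threshold and higher in DSS are red, with the interferon-inducible GTPases Gbp4 and Iigp1 and the dividing-cell genes Birc5 and Prc1 high above the line, and the 280 lower in DSS are dark blue, with Apoe and Malat1 lowest among the abundant genes.

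The interferon-inducible GTPases stood higher with colitis. Of the 16 genes of this list, guanylate-binding proteins (Gbp) and immunity-related GTPases (Irg), 14 were tested and 8 rose, with a median change of 1.98. Summed over the list, the DSS libraries held 1062, 796, 507 and 963 normalized counts and the Sham6w libraries 257, 247, 250.1 and 202, a ratio of means of 3.48, and the lowest DSS library lay above the highest Sham6w library. The members are close copies of one another, chiefly within the Gbp clusters, so reads may have been split between them in the authors' counting.

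Windows around the transcription start are shown for 5 of the 8 genes that rose, those with a window in the table used here, because promoters of this family are known to be read by interferon-activated factors, among them the interferon regulatory factors. Each runs from 250 bases before to 50 bases after the start (RefSeq, GRCm38.p6), with capitals marking the interferon-stimulated response element core (ISRE, GAAA NN GAAA) and the gamma-activated site core (GAS, TTCNNNGAA), searched on both strands.
Igtp, chr11:58199306-58199605, plus strand: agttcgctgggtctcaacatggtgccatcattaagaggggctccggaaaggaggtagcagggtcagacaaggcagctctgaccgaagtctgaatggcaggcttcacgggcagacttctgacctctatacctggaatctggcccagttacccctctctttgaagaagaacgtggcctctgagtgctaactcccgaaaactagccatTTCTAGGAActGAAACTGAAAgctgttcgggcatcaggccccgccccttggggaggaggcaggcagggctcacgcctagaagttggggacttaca
Gbp7, chr3:142530086-142530385, plus strand: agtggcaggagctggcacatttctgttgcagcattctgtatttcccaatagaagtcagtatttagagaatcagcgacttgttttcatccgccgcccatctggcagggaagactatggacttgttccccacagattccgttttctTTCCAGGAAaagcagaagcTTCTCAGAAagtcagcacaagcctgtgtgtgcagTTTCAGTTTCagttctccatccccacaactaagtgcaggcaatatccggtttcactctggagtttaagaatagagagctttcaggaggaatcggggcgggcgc
Gbp5, chr3:142496684-142496983, plus strand: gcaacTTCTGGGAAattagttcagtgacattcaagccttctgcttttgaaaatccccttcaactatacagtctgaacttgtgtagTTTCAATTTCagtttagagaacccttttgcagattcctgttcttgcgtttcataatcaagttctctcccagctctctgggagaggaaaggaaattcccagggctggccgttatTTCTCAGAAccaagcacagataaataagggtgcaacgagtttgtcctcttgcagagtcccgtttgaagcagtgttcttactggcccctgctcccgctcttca
Gbp2, chr3:142620413-142620712, plus strand: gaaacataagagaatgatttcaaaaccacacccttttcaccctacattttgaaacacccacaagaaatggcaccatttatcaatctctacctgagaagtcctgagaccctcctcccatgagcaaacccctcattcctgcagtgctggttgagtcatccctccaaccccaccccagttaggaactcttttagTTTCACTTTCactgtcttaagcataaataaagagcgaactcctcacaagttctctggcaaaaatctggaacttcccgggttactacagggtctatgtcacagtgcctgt
Ifi47, chr11:49076337-49076636, plus strand: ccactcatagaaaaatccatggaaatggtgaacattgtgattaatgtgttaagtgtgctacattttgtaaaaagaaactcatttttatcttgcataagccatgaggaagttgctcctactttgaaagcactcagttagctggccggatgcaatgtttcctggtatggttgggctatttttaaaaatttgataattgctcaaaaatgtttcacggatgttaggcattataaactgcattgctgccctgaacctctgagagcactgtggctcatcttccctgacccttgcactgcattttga
Of the 9 list genes with a window, 8 held the ISRE letters, against 3.44% of all 32851 windows. The GAS letters were in 6 of the 9, against 8.30% of all windows, and both were in the same 6 genes, against 0.454%. In Igtp, Irgm2, Tgtp1 and Tgtp2 the ISRE letters began 11 bases after the GAS letters. The GAS core has the same pattern on both strands, so only the ISRE letters have a direction. In Igtp the ISRE and GAS letters began 34 and 45 bases before the start. The Ifi47 window held neither. These are letter matches only. The table used here gave no window for the other 5 tested members, Gbp4, Gbp6, Gbp8, Gbp9 and Iigp1.

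Gbp4 (ENSMUSG00000079363, chr5:105115767-105139586 on the minus strand, GRCm38 as for all positions), a guanylate-binding protein, was at 51.8, 27.5, 28.4 and 48.6 in the DSS libraries and 3.19, 3.03, 3.97 and 6.64 in the Sham6w libraries. Every DSS library lay at least 4 times above the highest Sham6w library (log2 change 2.94 ± 0.62, adjusted p = 0.00665). Gbp7 (ENSMUSG00000040253, chr3:142530342-142550149 on the plus strand), of the same family, was at 80.5, 95.1, 62.2 and 52.6 in the DSS libraries and 30.9, 26.7, 30.8 and 17.4 in the Sham6w libraries, again without overlap (log2 change 1.42 ± 0.31, adjusted p = 0.00769). The Irg protein Ifi47 was at 142, 103, 82.4 and 119 in the DSS libraries and 36.2, 26.7, 23.8 and 21.6 in the Sham6w libraries (log2 change 2.00 ± 0.37, adjusted p = 0.00218).

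Iigp1, an Irg GTPase that coats and ruptures the vacuoles of intracellular parasites, reached 345, 200.1, 109.8 and 249 in DSS, against 46.8, 41.8, 57.6 and 15.8 in Sham6w. The groups did not overlap, and the spread within each was wide (log2 change 2.48 ± 0.60, adjusted p = 0.0159). Igtp (ENSMUSG00000078853, chr11:58199556-58207591 on the plus strand), a regulatory member of the Irg family, was at 73.3, 47.5, 31.1 and 44.7 in the DSS libraries and 9.58, 15.8, 7.94 and 1.66 in the Sham6w libraries (log2 change 2.57 ± 0.65, adjusted p = 0.0186). Iigp1 and Igtp did not pass without Sham6w replicate 4 (adjusted p = 0.0561 for Iigp1), and Igtp also not without DSS replicate 2 (at most 0.0664). Gbp5, which promotes inflammasome assembly, rose by 2.55 ± 0.64 (adjusted p = 0.0186; 0.0613 without DSS replicate 1).

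Gbp2 (log2 change 2.75 ± 0.79, adjusted p = 0.0349) and Gbp6 (log2 change 2.89 ± 0.86, adjusted p = 0.0414) had the largest spreads of the list. Gbp2 did not pass in 5 and Gbp6 in 6 of the 8 fits that leave out 1 library (adjusted p up to 0.109 and 0.116), nor did either in edgeR. The other 6 tested members did not pass: Tgtp1 (1.97), Tgtp2 (1.94), Irgm2 (1.22), Gbp8 (1.15), Gbp9 (1.03) and Gbp3 (0.19), with adjusted p from 0.0551 for Gbp8 upward. In single fits without 1 library, 4 to 8 members of the list rose, 4 without Sham6w replicate 4 and 5 without DSS replicate 2.

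**Figure D2:**
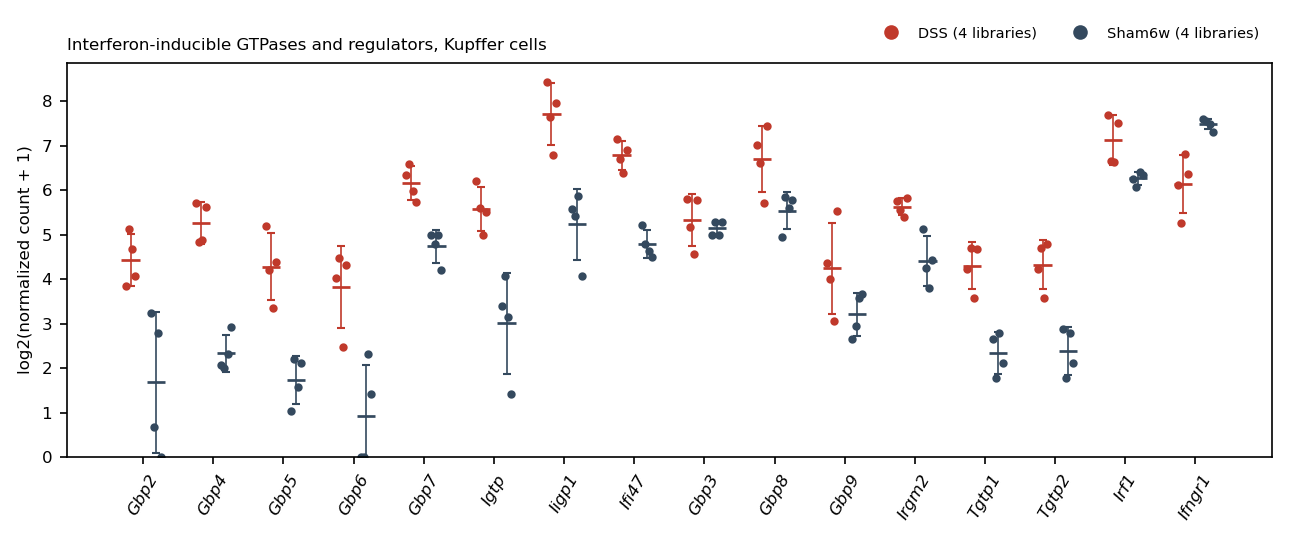
The log2(normalized count + 1) of each Kupffer cell library is shown for the 14 GTPases tested and 2 regulators, with DSS to the left (red) and Sham6w to the right (dark blue) of each pair. Horizontal bars are means and whiskers are SD of 4 libraries. The 8 genes from Gbp2 to Ifi47 rose, the 6 from Gbp3 to Tgtp2 did not pass, Irf1 rose and Ifngr1 fell.

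The regulators upstream of these GTPases moved less uniformly. Ifngr1 (ENSMUSG00000020009, chr10:19591949-19610229 on the plus strand), the ligand-binding chain of the interferon gamma receptor, was at 67.9, 37.5, 112 and 81.4 in the DSS libraries and 193, 186, 179.7 and 159 in the Sham6w libraries, so that every DSS library was lower (log2 change −1.35 ± 0.23, adjusted p = 0.00125). Irf1, a transcription factor that interferon gamma induces, rose by 0.86 ± 0.26 (adjusted p = 0.0467) and did not pass in 6 of the 8 fits without 1 library (up to 0.138). The kinase gene Pim1 was at 102, 97.6, 113 and 48.6 in the DSS libraries and 29.8, 26.7, 36.7 and 34.0 in the Sham6w libraries (log2 change 1.42 ± 0.32, adjusted p = 0.0115). Altogether the interferon gamma response list, which holds Irf1, Pim1 and Ifngr1, had 2 members that rose and 1 that fell of 16 tested. Its median was 0.41, and of all genes tested 3.34% rose and 4.55% fell.

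None of 17 genes of the type I interferon response passed in limma (median 0.07), 2 had an unadjusted p under 0.05, and edgeR and DESeq2 called 1 each, with Isg15 at 0.77 ± 0.42 (adjusted p = 0.283). Of 17 genes of MHC class I and peptide loading (median 0.79), 2 rose, the immunoproteasome subunit Psmb8 (log2 change 1.52 ± 0.46, adjusted p = 0.0465) and the proteasome activator Psme2 (log2 change 0.93 ± 0.27, adjusted p = 0.0366). Psmb8 did not pass in any and Psme2 not in 6 of the 8 fits without 1 library (up to 0.114 and 0.112), and Psme2 overlapped between the groups. The count of 2 was 4 under equal totals and in edgeR and 6 in DESeq2. Summed over its 20 genes in the table, the class I list was at 3203, 2907, 2756 and 3365 in the DSS libraries and 2222, 2312, 2623 and 1922 in the Sham6w libraries, without overlap. None of 10 genes of MHC class II and costimulation passed in limma (median −0.12; 2 with an unadjusted p under 0.05, none called by edgeR and 1 by DESeq2), and the invariant chain Cd74 was at −0.37 ± 0.22 (adjusted p = 0.33).

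Inflammatory signalling genes showed no member past the threshold. In none of the 13 inflammatory cytokine and NF-kB feedback genes (median 0.37), 14 chemokines (median 0.36), 8 chemokine receptors (median −0.01) and 22 immediate early genes of tissue dissociation (median −0.04) did the change pass in limma. The numbers with an unadjusted p under 0.05 were 2 of the cytokine, 1 of the chemokine, 0 of the receptor and 2 of the immediate early genes. DESeq2 called 1 cytokine and 1 immediate early gene, and edgeR called 0 in all 4 lists. Il1b, interleukin 1 beta, was at 68.8, 119, 164 and 92.3 in the DSS libraries and 66.0, 48.5, 77.4 and 72.2 in the Sham6w libraries, with overlap (log2 change 0.69 ± 0.30, adjusted p = 0.158). Tnf had few reads and was at 3.58, 26.3, 15.6 and 4.96 in the DSS libraries and 6.39, 3.03, 1.99 and 1.66 in the Sham6w libraries (log2 change 1.43 ± 0.72, adjusted p = 0.236). Socs3, a feedback inhibitor of cytokine signalling, was at 1.31 ± 0.45 (adjusted p = 0.0715). A gene that did not pass is not shown to be unchanged, since in simulated data the test recovered 25.8% of 2-fold changes.

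Genes of mitosis stood higher with colitis. Of 25 genes in the table only 8 reached the level to be tested, and 5 of these rose (median 2.31), so the tested genes are those with reads in some libraries and say nothing of the other 17. The sum over all 25 was 266, 251, 232 and 304 normalized counts in DSS and 101, 33.3, 39.7 and 58.1 in Sham6w, without overlap and with a ratio of means of 4.54. Birc5 (ENSMUSG00000017716, chr11:117849251-117855743 on the plus strand), which encodes survivin, a subunit of the chromosomal passenger complex, was at 33.1, 37.5, 19.2 and 30.8 in the DSS libraries and 0, 1.82, 1.99 and 0 in the Sham6w libraries. The Sham6w libraries held few of its reads (log2 change 4.15 ± 0.48, adjusted p = 1.25e-05). Prc1 (ENSMUSG00000038943, chr7:80294450-80316259 on the plus strand), which bundles the microtubules of the spindle midzone, was at 17.0, 8.76, 12.8 and 19.8 in DSS and at 0 in each Sham6w library, 60 reads against 0, which is at least 5.57-fold higher when 3 reads per Sham6w library are taken as the floor (adjusted p = 0.00976).

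Pttg1, or securin, which holds back the separation of sister chromatids, was at 57.2, 66.3, 65.9 and 60.5 in the DSS libraries and 40.5, 4.85, 0 and 8.30 in the Sham6w libraries, where Sham6w replicate 1 lay well above the other control libraries (log2 change 3.20 ± 0.73, adjusted p = 0.0115). Top2a, topoisomerase II alpha, rose by 1.84 ± 0.45 (adjusted p = 0.0163) but not without Sham6w replicate 2 or DSS replicate 4 (at most 0.0611). The centromeric histone gene Cenpa rose by 2.78 ± 0.85 (adjusted p = 0.046) and did not pass in 7 of the 8 fits without 1 library (up to 0.13). Mki67, Cks1b and Tpx2 did not pass (changes of 1.33, 1.68 and 1.54). Without DSS replicate 4 or Sham6w replicate 2, 3 members of the list rose. The 9 tested DNA replication genes did not pass in limma, edgeR or DESeq2 (median 0.32; 2 with an unadjusted p under 0.05 in limma), among them Pcna at −0.12.

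The windows of Cenpa and Prc1 are shown because genes of mitosis are known to carry the cell cycle homology region (CHR, TTTGAA) with CCAAT boxes upstream. Capitals mark these letters, searched on both strands, so that ATTGG is a CCAAT box on the other strand.
Cenpa, chr5:30666636-30666935, plus strand: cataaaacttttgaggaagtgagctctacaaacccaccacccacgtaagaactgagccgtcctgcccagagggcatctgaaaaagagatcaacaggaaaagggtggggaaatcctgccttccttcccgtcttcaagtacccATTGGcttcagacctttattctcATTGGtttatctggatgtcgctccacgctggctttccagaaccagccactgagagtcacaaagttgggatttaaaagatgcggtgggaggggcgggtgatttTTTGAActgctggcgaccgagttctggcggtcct
Prc1, chr7:80294201-80294500, plus strand: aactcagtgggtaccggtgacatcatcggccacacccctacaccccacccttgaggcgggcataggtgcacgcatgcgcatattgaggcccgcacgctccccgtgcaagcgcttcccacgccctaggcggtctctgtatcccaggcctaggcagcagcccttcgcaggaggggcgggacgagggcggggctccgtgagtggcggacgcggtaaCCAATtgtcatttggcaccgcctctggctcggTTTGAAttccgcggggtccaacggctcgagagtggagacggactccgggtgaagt
Of the 7 tested mitosis genes with a window, 5 held both motifs (Mki67, Top2a, Cenpa, Prc1 and Cks1b), against 6.95% of all windows. The CHR letters alone were in 17.9% and the CCAAT letters in 37.4% of all windows. The Birc5 and Pttg1 windows held neither.

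Chromatin and cytoskeleton genes of dividing cells were partly higher, 4 of 18 tested, with a median of 0.50. Hmgn2 (ENSMUSG00000003038, chr4:133964738-133968650 on the minus strand), a nucleosome-binding protein, was at 50.1, 85.1, 92.4 and 54.6 in the DSS libraries and 17.0, 26.1, 13.9 and 14.1 in the Sham6w libraries (log2 change 1.92 ± 0.33, adjusted p = 0.00117). Hmgb2, a chromatin protein abundant in dividing cells, was at 52.7, 82.6, 46.7 and 49.6 in the DSS libraries and 27.7, 7.28, 18.9 and 20.7 in the Sham6w libraries (log2 change 1.68 ± 0.37, adjusted p = 0.00876). In both genes every DSS library lay above every Sham6w library. Ran, the GTPase of nuclear transport and spindle assembly, rose by 0.92 ± 0.20 (adjusted p = 0.00695). Tuba1b, an alpha tubulin, rose by 0.72 ± 0.20 (adjusted p = 0.0312) and did not pass in 6 of the 8 fits without 1 library (up to 0.105). The histone gene Hist1h2ap, of a cluster of near-identical copies, rose by 1.51 ± 0.39 (adjusted p = 0.0197), but not without Sham6w replicate 2 or 3 or DSS replicate 2 (up to 0.0782).

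Of 76 cytosolic ribosomal protein genes 34 rose and none fell (median 0.53), and 18 to 29 rose when a library was left out, 18 without DSS replicate 2 and 18 without Sham6w replicate 2. Ribosomal protein genes have many pseudogene copies, with which their reads may be shared. Rps18 (ENSMUSG00000008668, chr17:33951999-33956001 on the minus strand), of the small subunit, was at 618, 734, 607 and 585 in the DSS libraries and 328, 287, 282 and 370.1 in the Sham6w libraries (log2 change 1.01 ± 0.13, adjusted p = 9.37e-05). Rpsa, a small subunit protein also known as the laminin receptor, was at 166, 204, 140.0 and 177 in the DSS libraries and 90.5, 87.9, 90.3 and 86.3 in the Sham6w libraries (log2 change 0.93 ± 0.15, adjusted p = 0.000526), and its Sham6w libraries lay close together. Ribosomal protein transcripts took 11.7% to 13.5% of the reads in DSS and 7.73% to 8.73% in Sham6w. Their summed normalized counts averaged 36506 in DSS and 26070 in Sham6w. In ligated Kupffer cells the sums averaged 34928 (CBDL2w) and 34404 (CBDL6w), so a level above Sham6w was not particular to colitis. Gas5, a host gene of small nucleolar RNAs whose transcript is degraded during translation, was at 250.3, 285, 244 and 364 in the DSS libraries and 118, 119, 125 and 120.3 in the Sham6w libraries (log2 change 1.22 ± 0.23, adjusted p = 0.00236). Of 21 translation factors 2 rose (median 0.37), against 3.34% of all genes tested. They were the elongation factor Eef2 (log2 change 0.73 ± 0.18, adjusted p = 0.0153) and the initiation factor Eif2s2 (log2 change 0.71 ± 0.17, adjusted p = 0.0145). Without 1 library 0 to 3 rose, 0 without DSS replicate 2 (adjusted p = 0.0517 and 0.0621).

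Sec61g (ENSMUSG00000078974, chr11:16500530-16508484 on the minus strand), a subunit of the channel through which proteins enter the endoplasmic reticulum, was at 413, 468, 371 and 473 in the DSS libraries and 225, 194, 107 and 191 in the Sham6w libraries (log2 change 1.31 ± 0.22, adjusted p = 0.00117). Pgk1, a glycolytic enzyme, was at 37.5, 45.0, 51.2 and 60.5 in the DSS libraries and 13.8, 16.4, 17.9 and 31.5 in the Sham6w libraries (log2 change 1.29 ± 0.25, adjusted p = 0.00338). Nme2, a nucleoside diphosphate kinase, was at 46.5, 93.8, 77.8 and 52.6 in the DSS libraries and 22.4, 22.4, 18.9 and 26.6 in the Sham6w libraries (log2 change 1.50 ± 0.29, adjusted p = 0.00343). None of these 3 genes overlapped between the groups. Timm10b, a mitochondrial import protein, rose by 1.58 ± 0.36 (adjusted p = 0.0108). Of 14 glycolysis genes 2 rose, Pgk1 and Hk2, against 3.34% of all genes tested. Hk2 (0.64) did not pass in 6 of the 8 fits without 1 library (up to 0.166).

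Of 17 genes of the unfolded protein response and endoplasmic reticulum chaperones, 5 rose (median 0.66), and none rose without DSS replicate 2. Pdia4, a disulfide isomerase, was at 15.2, 21.3, 12.8 and 16.9 in the DSS libraries and 3.19, 6.67, 7.94 and 1.66 in the Sham6w libraries (log2 change 1.72 ± 0.42, adjusted p = 0.0164), and did not pass without DSS replicate 2 or Sham6w replicate 4 (at most 0.0616). Hspa5, the main chaperone of the compartment, rose by 0.74 ± 0.19 (adjusted p = 0.02), but not without Sham6w replicate 2, DSS replicate 1 or DSS replicate 2 (up to 0.0919). The other 3 were Hyou1, Sel1l and Pdia3, at 1.10, 0.76 and 0.66, and they did not pass in 5, 6 and 5 of the 8 fits without 1 library (up to 0.145, 0.151 and 0.15).

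Of 15 mitochondrial genome transcripts tested 13 fell and none rose (median −0.92). Of 73 nuclear genes of oxidative phosphorylation, which encode the other subunits of the same respiratory chain, 9 rose, none fell and 64 did not pass (median 0.44). mt-Nd2, a subunit of complex I, was at 1014, 959, 692 and 827 in the DSS libraries and 1355, 1772, 1919.8 and 2044 in the Sham6w libraries, without overlap (log2 change −1.02 ± 0.19, adjusted p = 0.00233). mt-Nd4 fell by 0.95 and mt-Cytb by 0.97 on the log2 scale (SE 0.17 and 0.20; adjusted p = 0.00177 and 0.00625). Atp5g1, a nuclear gene for the proton ring of ATP synthase, was at 66.2, 85.1, 57.6 and 56.6 in the DSS libraries and 38.3, 26.7, 30.8 and 26.6 in the Sham6w libraries (log2 change 1.09 ± 0.24, adjusted p = 0.00775). The mitochondrial count was 3 without Sham6w replicate 2 and 4 without DSS replicate 3, and the nuclear count was 1 to 7 without 1 library, 1 without DSS replicate 2 and 1 without Sham6w replicate 2. Mitochondrial transcripts took 3.49% to 5.20% of the reads in DSS and 6.46% to 9.00% in Sham6w. Their summed normalized counts averaged 13027 in DSS and 23666 in Sham6w. In ligated Kupffer cells the sums averaged 14375 (CBDL2w) and 17499 (CBDL6w), also below Sham6w.

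Malat1 (ENSMUSG00000092341, chr19:5795690-5802672 on the minus strand), a nuclear noncoding RNA, was at 1349, 989, 994 and 1498 in the DSS libraries and 2679, 2774, 3476 and 4118 in the Sham6w libraries (log2 change −1.43 ± 0.21, adjusted p = 0.000242). It took 0.334% to 0.511% of the reads in DSS and 0.877% to 1.33% in Sham6w. Shares of mitochondrial and nuclear transcripts can also vary with RNA quality and with how cells were isolated, and their part in the results above was not tested. The immediate early genes that dissociation induces took 0.965% to 1.29% of the reads in DSS and 0.847% to 1.44% in Sham6w, which overlapped.

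Genes that define the resident macrophage were among those that fell. Of 22 resident Kupffer cell genes 6 fell and none rose (median −0.59), and of 18 tissue macrophage genes 8 fell and none rose (median −0.51). The 6 were the lectins Cd207 (−2.03) and Clec4f (−1.27), the complement receptor Vsig4 (−1.19), the iron exporter Slc40a1 (−1.09), and, less firmly, C6 (−1.33) and the folate receptor Folr2 (−1.07). Folr2 did not pass without 4 libraries in turn (Sham6w replicates 2 and 3, DSS replicates 2 and 4; up to 0.099), and C6, of the membrane attack complex, did not in 6 of 8 (up to 0.0983). Other members of the list did not pass: Cd5l (0.25 ± 0.17), Cd163 (−0.23 ± 0.35), Timd4 (−0.49 ± 0.21), Clec1b (−0.36 ± 0.23) and Marco (1.21 ± 0.44; adjusted p = 0.0852). When a library was left out, 4 to 6 members of the list fell. The list sums averaged 2161 (CBDL2w) and 2094 (CBDL6w) in ligated Kupffer cells. In monocyte-derived macrophages they averaged 585 in DSS and 1149 in Sham6w. A level below Sham6w was thus not particular to colitis or to Kupffer cells. C6, Clec4f, Vsig4, Slc40a1 and Folr2 also passed as lower in DSS monocyte-derived macrophages in limma, of these C6 alone without each library in turn.

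Receptors and transcription factors of macrophages were also among the genes that fell. Adgre1, the F4/80 antigen, was at 85.8, 88.8, 105 and 120.1 in the DSS libraries and 178, 228, 202 and 201 in the Sham6w libraries (log2 change −1.02 ± 0.17, adjusted p = 0.000993). Csf1r, the receptor for the growth factor that keeps macrophages alive, was at 418, 324, 415 and 366 in the DSS libraries and 676, 659, 708 and 565 in the Sham6w libraries (log2 change −0.78 ± 0.15, adjusted p = 0.00334). In neither gene did any DSS library reach the lowest Sham6w library. The receptor tyrosine kinases for apoptotic cells also fell, Axl by 0.83 (adjusted p = 0.00303) and Mertk by 0.63 (adjusted p = 0.0295; not past the threshold without 4 libraries in turn, up to 0.0956, nor under equal totals). The transcription factor gene Maf fell (log2 change −1.10 ± 0.15, adjusted p = 0.000102), and Cebpa was at 14.3, 20.0, 14.6 and 14.9 in the DSS libraries and 39.4, 31.5, 43.7 and 59.8 in the Sham6w libraries (log2 change −1.37 ± 0.32, adjusted p = 0.0126). Nr1h3, which encodes LXR-alpha (−0.42 ± 0.23), Spi1 (−0.03 ± 0.23) and Irf8 (−0.23 ± 0.24) did not pass. In all, 5 of 23 lineage factors fell, among them Rbpj and Klf4, which did not pass without 5 and 7 libraries in turn (up to 0.128 and 0.111).

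Dab2 (ENSMUSG00000022150, chr15:6299788-6440712 on the plus strand), a clathrin adaptor, was at 122, 73.8, 77.8 and 86.3 in the DSS libraries and 261, 249.8, 236 and 319 in the Sham6w libraries (log2 change −1.57 ± 0.18, adjusted p = 1.25e-05). Mrc1, the mannose receptor, was at 132, 115, 153 and 132 in the DSS libraries and 323, 371, 314 and 267 in the Sham6w libraries (log2 change −1.25 ± 0.14, adjusted p = 1.21e-05). Itgb5, an integrin subunit that takes part in the uptake of apoptotic cells, was at 23.2, 20.0, 37.5 and 28.8 in the DSS libraries and 57.5, 118, 93.3 and 92.9 in the Sham6w libraries (log2 change −1.68 ± 0.26, adjusted p = 0.000376). Dab2, Mrc1 and Itgb5 were lower in every DSS library than in any Sham6w library. Fmnl2, a formin that builds actin filaments, was at 25.0, 25.0, 27.5 and 15.9 in the DSS libraries and 70.3, 75.2, 90.3 and 68.9 in the Sham6w libraries (log2 change −1.68 ± 0.24, adjusted p = 0.000155).

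Fcna, ficolin A, a lectin that starts the complement cascade, was at 58.1, 50.0, 43.0 and 77.4 in the DSS libraries and 154, 182, 185 and 183 in the Sham6w libraries (log2 change −1.64 ± 0.33, adjusted p = 0.00416). Lilr4b, an immunoglobulin-like receptor, was at 84.0, 36.3, 51.2 and 96.2 in the DSS libraries and 221, 129, 202 and 295 in the Sham6w libraries (log2 change −1.69 ± 0.28, adjusted p = 0.00111). Fcgrt, the neonatal Fc receptor, which spares albumin and IgG from degradation, fell by 1.26 (SE 0.23, adjusted p = 0.00228), the 1 of 6 Fc receptor genes to pass. Tlr7, a sensor of single-stranded RNA, was at 1.79, 3.75, 10.1 and 2.98 in the DSS libraries. Its Sham6w libraries were at 26.6, 10.3, 14.9 and 16.6 (log2 change −1.81 ± 0.43, adjusted p = 0.0138 in limma). It was the 1 of 14 endotoxin and Toll-like receptor genes to pass, while Tlr4 was at −0.23 ± 0.41. Both counts of 1 stand beside the 4.55% of all genes tested that fell.

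Msr1 and Tgm2 moved the other way. Msr1, scavenger receptor A, was at 185, 198, 177 and 153 in the DSS libraries and 112, 112, 99.3 and 133 in the Sham6w libraries, higher in every DSS library (log2 change 0.64 ± 0.14, adjusted p = 0.00695). Of the 12 scavenger receptors it was the one that rose, while Mrc1 and Cd36 fell, Cd36 (−2.64 ± 0.73) with overlap and not in 5 of the 8 fits without 1 library. Tgm2, a transglutaminase that helps engulf apoptotic cells, was at 96.5, 87.6, 64.1 and 114 in the DSS libraries and 49.0, 44.3, 38.7 and 60.6 in the Sham6w libraries (log2 change 0.89 ± 0.20, adjusted p = 0.0115), the 1 of 12 efferocytosis genes to rise, while 4 fell, 2 to 3 without 1 library and 2 under equal totals. The count was 2 without Sham6w replicate 2 or 4 or DSS replicate 3 or 4.

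Of 15 complement genes 6 fell and none rose (median −0.58). C1qa fell by 0.69 and C1qc by 0.58 (adjusted p = 0.00751 and 0.0138), and C1qb, the remaining chain of C1q, was at −0.40 ± 0.13 (adjusted p = 0.06). C3ar1, the receptor for C3a, fell by 1.23 (adjusted p = 0.0178), but not without Sham6w replicate 2 or DSS replicate 4 (up to 0.0653). The others were Vsig4, C6 and Itgam, the last with overlap and not in 5 of the 8 fits without 1 library (up to 0.111). Without DSS replicate 4 or Sham6w replicate 2, 3 of the 6 fell.

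Cholesterol efflux and LXR target genes were lower, 8 of 17 with none higher (median −0.50). Summed over the 18 genes in the table, the DSS libraries held 1233, 1252, 1138 and 1603 and the Sham6w libraries 3675, 3652, 2929 and 2955, a ratio of means of 0.396 that Apoe dominates. Apoe, the lipoprotein that carries cholesterol out of macrophages, was at 481, 500.3, 436 and 768 in the DSS libraries and 2455, 2569.5, 1966 and 1627 in the Sham6w libraries (log2 change −1.99 ± 0.17, adjusted p = 2.64e-07). Abca1, the transporter that loads cholesterol onto apolipoproteins, was at 14.3, 16.3, 23.8 and 15.9 in the DSS libraries and 41.5, 47.3, 36.7 and 36.5 in the Sham6w libraries (log2 change −1.18 ± 0.21, adjusted p = 0.00193). Mylip, which marks the LDL receptor for degradation, was at 8.05, 11.3, 11.0 and 7.94 in the DSS libraries and 26.6, 28.5, 27.8 and 22.4 in the Sham6w libraries (log2 change −1.38 ± 0.27, adjusted p = 0.00367).

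For these 3 genes the highest DSS library stayed below the lowest Sham6w library. Pltp, the phospholipid transfer protein, fell by 1.41 (adjusted p = 0.00185). Lipa, the lysosomal acid lipase, fell by 1.26 and Apoc1 by 1.09, and each did not pass without 4 libraries in turn (up to 0.0846 and 0.093). Npc2 and Mertk complete the 8, and they did not pass in 6 and 4 of the 8 fits without 1 library (up to 0.129 and 0.0956). The count was 4 without DSS replicate 3 or Sham6w replicate 2 and 5 without Sham6w replicate 4. The 5 tested genes of cholesterol synthesis did not pass in limma, edgeR or DESeq2 (median −0.10), and 0 had an unadjusted p under 0.05 in limma.

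Lysosomal proteases and iron storage followed. Of 28 cathepsin and lysosome genes 8 fell and 1 rose (median −0.49). Ctsb (ENSMUSG00000021939, chr14:63122462-63145923 on the plus strand), cathepsin B, was at 251, 239, 315 and 257 in the DSS libraries and 560.0, 517, 546 and 548 in the Sham6w libraries (log2 change −1.04 ± 0.14, adjusted p = 0.000102). Ctsa, cathepsin A, was at 45.6, 46.3, 44.8 and 40.7 in the DSS libraries and 78.8, 89.7, 125 and 96.3 in the Sham6w libraries (log2 change −1.10 ± 0.17, adjusted p = 0.000376). In both the DSS libraries lay close together and below Sham6w. Ctsl fell by 0.84 but not without DSS replicate 2 (adjusted p = 0.0713), and Lgmn, legumain, by 0.76 but not without Sham6w replicate 2 (0.0531). The gene that rose, Gusb (0.72), did not pass in any fit without 1 library. The count of falls was 3 without DSS replicate 2 or Sham6w replicate 2.

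Of 16 heme and iron genes 4 fell (median −0.42). Ftl1 (ENSMUSG00000050708, chr7:45457944-45459884 on the minus strand), the ferritin light chain, was at 1628, 1589, 1765 and 1848 in the DSS libraries and 2654, 2801, 2971 and 3180.2 in the Sham6w libraries (log2 change −0.76 ± 0.10, adjusted p = 0.000102). The heavy chain Fth1 was at −0.43 ± 0.26 and heme oxygenase Hmox1 at −0.71 ± 0.25 (adjusted p = 0.343 and 0.078), neither past the threshold. Slc40a1, ferroportin, fell by 1.09 (adjusted p = 0.00046). Trf, transferrin, fell by 0.96 but not without Sham6w replicate 2 or DSS replicate 3 (up to 0.0637), and Ncoa4, which delivers ferritin for degradation, did not pass in 5 of the 8 fits without 1 library. The list count was 2 without Sham6w replicate 2.

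Glucocorticoid-induced genes, which report the activity of the steroid receptor in many tissues, were lower in 3 of 11 (median −0.58). Klf9, a transcription factor, was at 11.6, 30.0, 14.6 and 24.8 in the DSS libraries and 69.2, 65.5, 48.6 and 53.1 in the Sham6w libraries, with the 4 DSS libraries well below (log2 change −1.58 ± 0.28, adjusted p = 0.00182). Fkbp5, a co-chaperone of the receptor, fell by 1.69 (adjusted p = 0.0173), but not without Sham6w replicate 2 or DSS replicate 4 (0.0569 at most). Txnip fell by 1.29, but not without replicate 2 of either group (up to 0.0742). Tsc22d3, or GILZ, was at −0.70 ± 0.24 (adjusted p = 0.0689), and Dusp1 at −0.11 ± 0.34.

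Hpgd, which inactivates prostaglandins, was at 64.4, 47.5, 45.8 and 53.6 in the DSS libraries and 151, 186, 179.7 and 194 in the Sham6w libraries (log2 change −1.74 ± 0.24, adjusted p = 0.000155). Pla2g7, which inactivates platelet-activating factor, fell by 1.12 (adjusted p = 0.0137), and Ptgs1, cyclooxygenase 1, fell by 0.69 but did not pass in 7 of the 8 fits without 1 library, under equal totals or in edgeR. These were the 3 falls among 13 prostaglandin and leukotriene genes, whose list in sum was at 508, 522, 506 and 381 in the DSS libraries and 734, 763, 794 and 794 in the Sham6w libraries. Of 15 antioxidant genes 3 fell: Gpx1 by 0.73 (adjusted p = 0.00543), Gclm of glutathione synthesis by 1.16 (adjusted p = 0.0138), and Gstm1, which did not pass in 6 of the 8 fits without 1 library (up to 0.112). Of all genes tested 4.55% fell.

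Of 13 genes of lipid- and scar-associated macrophages, 2 fell and 1 rose (median −0.16). The list counts given here stand beside 4.55% of all genes tested that fell and 3.34% that rose. Cd81, a tetraspanin, was at 81.3, 42.5, 86.0 and 72.4 in the DSS libraries and 134, 159, 172 and 114 in the Sham6w libraries (log2 change −1.06 ± 0.24, adjusted p = 0.011). Mmp12, a macrophage elastase, had 2 reads in all in DSS and 35 in Sham6w, and its fall (adjusted p = 0.011) rests on these few reads. Mmp14, a membrane-bound metalloproteinase, rose by 1.35 ± 0.40 with overlap, and did not pass in 5 of the 8 fits without 1 library (up to 0.144). Of 24 genes of leukocyte migration and actin, the intermediate filament gene Vim alone rose (log2 change 1.15 ± 0.28, adjusted p = 0.0158), but not without Sham6w replicate 2, DSS replicate 2 or DSS replicate 3 (up to 0.0694); the count was 4 without DSS replicate 4. Of 4 hypoxia genes tested Hilpda, a lipid droplet protein, rose by 1.22 ± 0.37, with overlap and not in 6 of the 8 fits without 1 library (up to 0.141). None of 6 genes of patrolling monocytes passed in limma, edgeR or DESeq2 (median −0.03; 1 with an unadjusted p under 0.05 in limma).

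Outside the lists, the largest falls also took in Gdpd3, a lysophospholipase D, at 10.7, 25.0, 20.1 and 46.6 in the DSS libraries and 75.6, 118, 89.3 and 58.9 in the Sham6w libraries (log2 change −1.83 ± 0.39, adjusted p = 0.00738). Tmcc3 was at 19.7, 20.0, 14.6 and 18.9 in the DSS libraries and 42.6, 86.1, 53.6 and 58.9 in the Sham6w libraries (log2 change −1.63 ± 0.29, adjusted p = 0.00162), and Timp2, an inhibitor of metalloproteinases, at 24.1, 8.76, 31.1 and 23.8 in the DSS libraries and 71.3, 63.7, 56.6 and 42.3 in the Sham6w libraries (log2 change −1.48 ± 0.33, adjusted p = 0.00974). No DSS library reached a Sham6w library in these 3 genes, which the rule for naming them required. Zyx, zyxin of focal adhesions, fell by 1.54, but not without Sham6w replicate 2 (adjusted p = 0.0564).

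**Figure D3:**
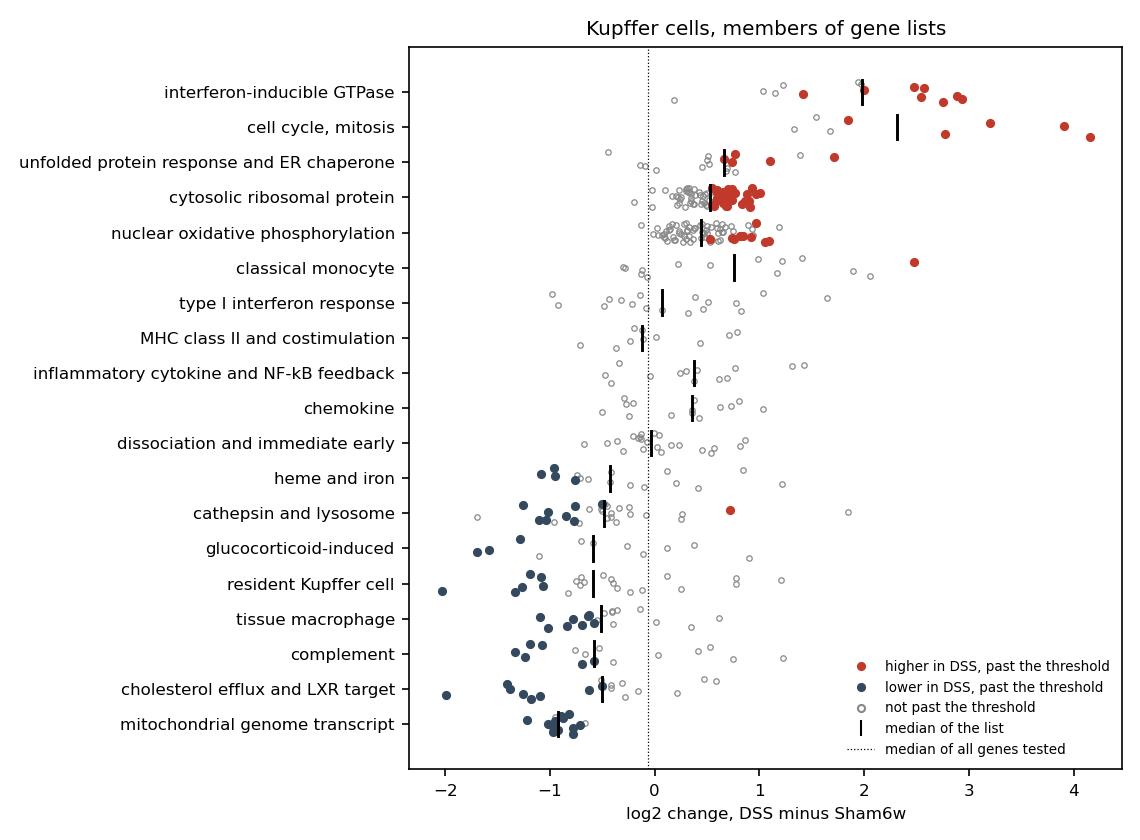
Each point is a tested gene of a list, placed by its log2 change in Kupffer cells, DSS minus Sham6w, and filled where it passed (red higher, dark blue lower in DSS). Black ticks are list medians, from 2.31 for mitosis to −0.92 for mitochondrial genome transcripts, and the dotted line is the median of all 6159 genes. The mitosis median covers the 8 of 25 genes that reached the level to be tested, and the filter may raise it. The GTPase and mitosis lists lie to the right, the macrophage, complement, cholesterol and mitochondrial lists to the left, and the chemokine, MHC class II and immediate early lists hold no filled point.

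Markers of other cells were counted beside these results. The 11 Kupffer cell markers took 0.652% to 0.819% of the reads in DSS and 0.949% to 1.04% in Sham6w, and the 6 macrophage markers 0.272% to 0.317% in DSS and 0.442% to 0.466% in Sham6w. The 7 classical monocyte markers took 0.0379% to 0.0837% in DSS and 0.0158% to 0.0224% in Sham6w, a ratio of means of 3.54. All 7 had reads in both groups, and their part in the falls of Kupffer cell genes and the rises of GTPase and mitosis genes was not tested. Plac8, which monocytes express strongly, was at 109, 174, 138 and 67.5 in the DSS libraries and 18.1, 17.6, 24.8 and 19.9 in the Sham6w libraries (log2 change 2.48 ± 0.51, adjusted p = 0.00579). In DSS, Plac8 held most of the counts of this marker list. Ccr2, a chemokine receptor of classical monocytes, was at 19.7, 28.8, 36.6 and 22.8 in the DSS libraries. It was at 40.5, 27.3, 23.8 and 22.4 in the Sham6w libraries, with overlap (log2 change −0.08 ± 0.26, adjusted p = 0.892 in limma). Ly6c2, Chil3 and Vcan of the same list were too low to be tested. Their means were 6.77, 9.67 and 2.67 in DSS and 0.684, 2.77 and 0.666 in Sham6w. F10 was at 11.6, 12.5, 14.6 and 14.9 in the DSS libraries and 1.06, 1.82, 5.96 and 2.49 in the Sham6w libraries (log2 change 2.06 ± 0.81, adjusted p = 0.114). Of the 14 tested genes of the longer classical monocyte list Plac8 alone rose in limma (median 0.76); the count was 2 without DSS replicate 1 and 3 without DSS replicate 4, 2 in edgeR and 4 in DESeq2.

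The 11 neutrophil markers took 0.0047% to 0.0158% of the reads in DSS and 0.0028% to 0.0075% in Sham6w, with 6 of the 11 at 0 in every library of both groups. Endothelial, hepatocyte, B cell, T and NK cell, dendritic, erythroid and stellate markers overlapped between the groups, and the 3 cholangiocyte markers were at 0 in all 8 libraries. Ly6a, or Sca-1, which interferon induces, was at 44.7, 35.0, 37.5 and 127 in the DSS libraries and 8.52, 1.21, 17.9 and 4.98 in the Sham6w libraries (log2 change 2.93 ± 0.88, adjusted p = 0.044). It did not pass in 7 of the 8 fits without 1 library (up to 0.145), nor in DESeq2.

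**Figure D4:**
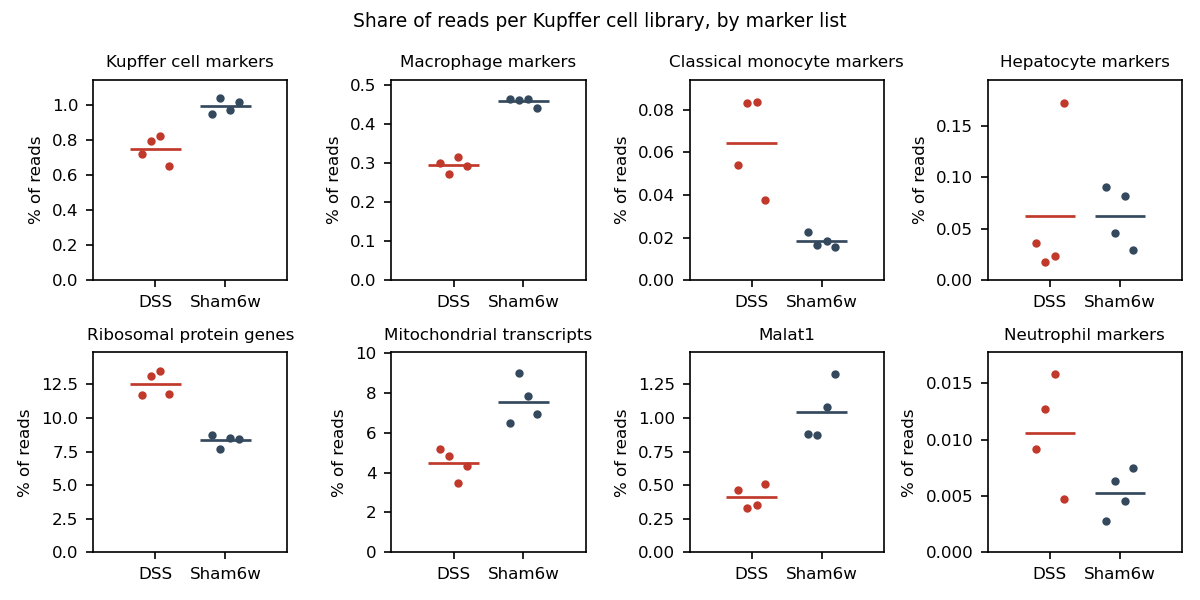
The share of reads in percent is shown for each Kupffer cell library and each marker list, DSS left (red) and Sham6w right (dark blue), with lines at the means of 4 libraries. Kupffer cell, macrophage, mitochondrial and Malat1 shares were lower in every DSS library and ribosomal and classical monocyte shares higher, while hepatocyte markers reached 0.173% in DSS replicate 4 alone.

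To place the genes by cell type, Kupffer cells and monocytes of CBDL2w livers were compared, whose means the DSS and Sham6w comparison does not use. Both fits took their filter and spread from shared libraries, the CBDL2w Kupffer cells among them, so the calls are not independent. Of 7555 genes 1086 passed (14.4%), 601 higher in Kupffer cells (7.95%) and 485 lower (6.42%). Of the 206 genes that rose with colitis, 8 (3.88%) were higher and 41 (19.9%) lower in CBDL2w Kupffer cells than in CBDL2w monocytes. Of the 280 that fell, 103 (36.8%) were higher and 8 (2.86%) lower. Over all 6159 genes tested for colitis the shares were 9.50% and 5.85%. These are counts without a test, and the part of the higher classical monocyte markers in them was not tested.

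The change with colitis was then compared with that in the monocyte-derived macrophages and monocytes of the same groups, by testing the difference between the changes. On their own 389 of 7555 genes passed in monocyte-derived macrophages (5.15%), 253 higher in DSS (3.35%) and 136 lower (1.80%), and in monocytes 67 (0.887%). The change differed between Kupffer cells and monocyte-derived macrophages for 65 genes (0.860%), more positive in Kupffer cells for 14 (0.185%) and more negative for 51 (0.675%). Against monocytes it differed for 18 genes (0.238%), 6 more positive (0.0794%) and 12 more negative (0.159%). Leaving out 1 library gave 20 to 145 genes for the first difference (20 without monocyte-derived macrophage DSS replicate 5+6, 145 without their Sham6w replicate 3) and 11 to 27 for the second. With a block for replicate number the counts were 8 and 0. The split of the first difference into more positive and more negative genes was 23 and 42 under equal totals. It was 10 and 18 in edgeR and 39 and 48 in DESeq2. Sham6w replicate 1+2+5 of the monocyte-derived macrophages held 118687 reads, and without it the split was 11 and 27.

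Birc5 rose in Kupffer cells by 4.15 ± 0.48 and was at 0.03 ± 0.63 in monocyte-derived macrophages and −1.29 ± 0.63 in monocytes. The differences were 4.12 ± 0.86 (adjusted p = 0.00807) and 5.45 ± 0.86 (adjusted p = 0.000394). Hmgb2 gave a difference from monocyte-derived macrophages of 2.46 ± 0.48 (adjusted p = 0.00359), with 57.3 ± 15.9 normalized counts in their DSS and 101 ± 38.2 in their Sham6w libraries (SD, n = 4 and 3). Hmgn2 gave 2.24 ± 0.51, which did not pass without Sham6w replicate 1+2+5 or DSS replicate 5+6 of those macrophages (up to 0.0796). Apart from Hmgn2, the genes named here for a difference kept an adjusted p under 0.05 without each of the 15 libraries in turn.

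Of the 51 genes with the more negative change in Kupffer cells, 5 that passed without each library in turn are given. Fcer1g, the signalling chain shared by Fc receptors, was at 199 ± 11.8 in DSS and 256 ± 24.6 in Sham6w Kupffer cells, against 359 ± 35.6 and 178 ± 41.0 in DSS and Sham6w monocyte-derived macrophages. The difference was −1.38 ± 0.23 (adjusted p = 0.000302), and against monocytes −1.16 ± 0.23 (adjusted p = 0.0107). Cathepsin L (Ctsl) changed by −0.84 ± 0.21 in Kupffer cells, against 1.47 ± 0.27 in monocyte-derived macrophages, a difference of −2.31 ± 0.37 (adjusted p = 0.000302). For Lyz1, a lysozyme, the difference was −2.30 ± 0.37 (adjusted p = 0.000302), for Lilr4b −2.23 ± 0.42 (adjusted p = 0.00271) and for Vsir, the immune checkpoint VISTA, −1.64 ± 0.33 (adjusted p = 0.00691). In these genes Kupffer cells had values below 0 and monocyte-derived macrophages above 0, though Fcer1g and Lyz1 did not pass in Kupffer cells alone (adjusted p = 0.0942 and 0.0668). Lilr4b and Vsir did not pass in monocyte-derived macrophages alone, so opposite directions are not shown for them.

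Apoe fell in Kupffer cells, fell too in monocyte-derived macrophages (−1.41 ± 0.25) and was at −0.03 ± 0.25 in monocytes, and the difference from monocytes passed (−1.96 ± 0.35, adjusted p = 0.00242). Malat1 fell in all 3 cell types, by 1.43 (Kupffer cells), 1.62 (monocyte-derived macrophages) and 1.48 (monocytes). None of the differences for the GTPases passed: Ifi47 was at 1.93 ± 0.45 in monocyte-derived macrophages (adjusted p = 0.00693) and 1.55 ± 0.45 in monocytes (adjusted p = 0.0646), and Igtp at 3.94 ± 0.72 in monocyte-derived macrophages (adjusted p = 0.000504). Irf1 rose in monocyte-derived macrophages (1.77 ± 0.35). Plac8 rose there as well (2.19 ± 0.42).

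**Figure D5:**
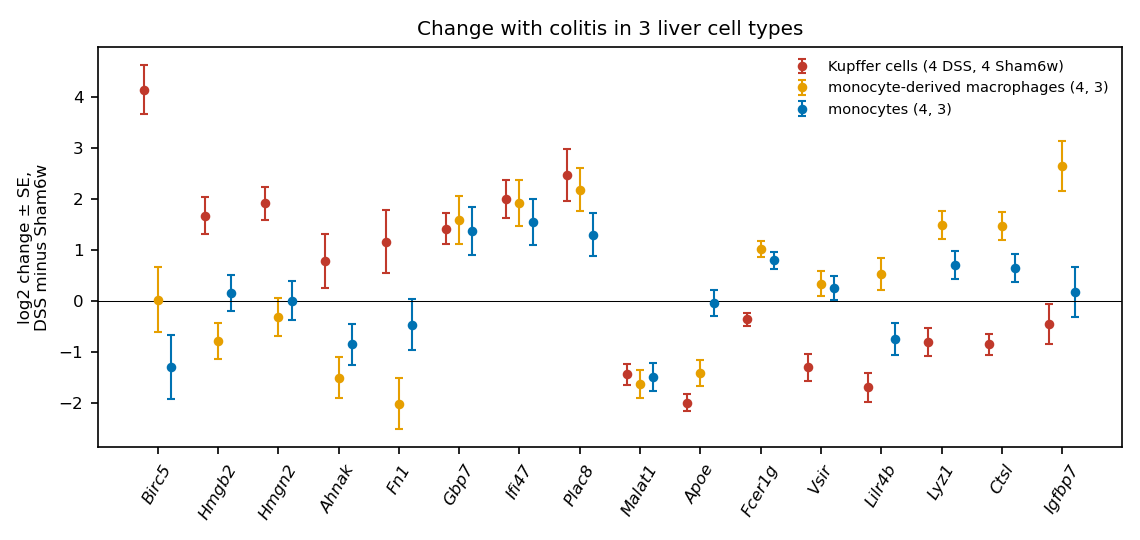
The log2 change, DSS minus Sham6w, with its SE is shown for 16 genes for Kupffer cells (red), for monocyte-derived macrophages (yellow) and for monocytes (blue). Birc5, Hmgb2 and Hmgn2 are highest in Kupffer cells, Gbp7, Ifi47 and Plac8 are above 0 and Malat1 is below 0 in all 3, and Fcer1g, Lilr4b, Lyz1 and Ctsl lie on opposite sides of 0 in Kupffer cells and monocyte-derived macrophages.

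Colitis was last set directly against advanced cholestatic injury, DSS against CBDL6w Kupffer cells, since the comparisons of each with Sham6w share the control libraries. Of 6159 genes 206 differed (3.34%), 94 higher in DSS (1.53%) and 112 lower (1.82%), and the number fell to 115 without DSS replicate 2. Between DSS and CBDL6w, 1 of 76 ribosomal protein genes was higher in DSS and 1 of 15 mitochondrial genome transcripts lower. Of the 8 mitosis genes 0 passed, with summed counts averaging 263 in DSS, 118 in CBDL6w and 58.1 in Sham6w. Apoe averaged 546 ± 150.1 normalized counts in DSS and 2843 ± 163 in CBDL6w (SD, n = 4 each; difference −2.41 ± 0.17, adjusted p = 5.36e-09). Cd63, a tetraspanin of lysosomes and exosomes, was at 8.13 ± 4.6 in DSS and 194 ± 90.3 in CBDL6w (−4.42 ± 0.38, adjusted p = 9.86e-08). Both lay far below CBDL6w in DSS, while Cd63 did not differ past the threshold between DSS and Sham6w (adjusted p = 0.118).

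The lectin gene Cd209f was at 119 ± 29.9 in DSS and 1.68 ± 3.4 in CBDL6w (6.14 ± 0.62, adjusted p = 1.35e-06), and the hemoglobin scavenger receptor Cd163 was higher in DSS by 2.85 ± 0.35 (adjusted p = 2.14e-05). Of the 14 GTPases 7 were higher in DSS here as well and none lower. Iigp1 averaged 226 ± 98.1 in DSS and 19.4 ± 26.4 in CBDL6w (4.20 ± 0.60, adjusted p = 0.000198), and Gbp4, Gbp7, Ifi47 and Irgm2 also passed (3.26 ± 0.62, 1.72 ± 0.31, 2.02 ± 0.37 and 2.02 ± 0.39). Tgtp1 and Tgtp2 passed too, but not in 5 of the 8 fits without 1 library (up to 0.121 and 0.0972), and Gbp2, Gbp5, Gbp6 and Igtp did not pass here (adjusted p = 0.13, 0.132, 0.0501 and 0.0813). Lower in DSS were the chemokine receptor Cx3cr1 (−3.12 ± 0.33, adjusted p = 2.5e-06), Cd207 (−2.87 ± 0.23), the transcription factor Mef2c (−3.80 ± 0.68) and Trem2, a lipid receptor of scar-associated macrophages (−3.24 ± 0.51, adjusted p = 0.000517). Apart from Tgtp1 and Tgtp2, each gene given as past the threshold in this comparison passed without each of the 8 DSS and CBDL6w libraries in turn.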

How the data were processed

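Messenger RNA was measured by 3' tag sequencing with unique molecular identifiers (QuantSeq 3' mRNA FWD kit, per the labels' protocols). Per the submitters' processing notes, STAR 2.7.5b, RSEM 1.3.1, Trimmomatic 0.39 and 0.39-1, UMI-tools 1.0.1, DESeq2 and the build GRCm38.p6 were used; neither their order nor the annotation is given in the sources used here. The authors deposited 1 signal per gene and library, the gene count over the library's DESeq2 size factor, in a table of 25307 genes and 58 libraries, of which 9 join 2 or 3 replicate numbers and none of these is among the 8 Kupffer cell libraries compared. Whole reads were recovered from the step size of every column (100% of values whole within 0.01). Since copies of a molecule may escape the identifiers, depth bounds counting error only.

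Genes that reached a normalized count of 10 in 3 or more Kupffer cell libraries were tested with limma 3.58.1 (trend and robust, R 4.3.3) on log2(normalized count + 1), two-sided, in 1 fit of all 20 Kupffer cell libraries in 5 groups. Differences between cell types were contrasts in 1 fit of all 58 libraries (7555 genes). Symbols and positions came from GENCODE M21 (GRCm38; 25272 identifiers matched, 35 not) and promoter windows from a RefSeq table of GRCm38.p6 (32851 windows, 27025 symbols). Floors are 3 reads per library. Shares of reads carry no test.

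The members and the 52 lists were chosen with earlier results of these data known. Named genes were chosen by rule. For the largest changes, 219 genes past the threshold had no overlap between groups and a mean of 50 or more in the higher group. Predicted genes, pseudogenes and receptor segments were left out of them. The 15 largest rises and 15 largest falls of these were named. Up to 5 of each list past the threshold without overlap were named too. Where no member of a list passed, its most abundant tested member was named. Fixed markers and up to 5 genes in each direction of each difference were added. Other list members are named to complete a count. On simulated data with the depths of these libraries (6454 genes), limma recovered 25.8% of 93 genes changed 2-fold and 71.1% of 97 changed 4-fold with 4.1% false calls, and called 0 genes with nothing changed. Alternatives were a pseudocount of 5, no filter, equal totals, the recovered reads tested with edgeR 4.0.16 or with DESeq2 1.42.0, a block for replicate number, the 8 libraries alone, and each library left out in turn. List counts and single genes under these were added after the data were seen. A few list members are not reported here by name.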

Additional observations from a re-analysis of the deposited data

Results flagged for a closer look

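Of 326 tests for a library far from the 3 others of its group, 24 were flagged, where chance flags about 1 in 20, and 6 of the 24 were in DSS replicate 4. The values are normalized counts unless said otherwise. In DSS replicate 4 the hepatocyte gene Ahsg was at 164.71 (14.30 to 18.76 in the others), Ly6a at 127 (35.02 to 44.70), C3ar1 at 7.94 (15.20 to 16.47) and Pecam1 at 24.81 (20.01 to 20.56), and hepatocyte markers took 0.1725% (0.0173% to 0.0362%) and platelet markers 3e-04% of the reads (0). Among the other DSS libraries, replicate 1 had Clec4f at 210.97 (177.62 to 182.57). DSS replicate 2 had Hsp90b1 at 342.73 (262.94 to 275.42), Atp5b at 148.85 (76.40 to 81.44), Cebpa at 20.01 (14.30 to 14.88) and Hmgb2 at 82.56 (46.67 to 52.74). DSS replicate 3 had Ctss at 1138.27 (920.62 to 957.50), Ucp2 at 21.05 (27.52 to 28.61), Hist1h2ap at 36.60 (75.05 to 76.88) and Mmp12 at 1.83 (0 in the others).

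In Sham6w, replicate 1 had Fcna at 154.37 (181.89 to 184.63) and Cx3cr1 at 71.33 (11.91 to 21.83). Sham6w replicate 2 had Lig1 at 9.70 (37.26 to 39.84). Sham6w replicate 3 had Vsir at 28.79 (43.16 to 44.71), Igfbp7 at 54.60 (27.68 to 29.10) and Mmp12 at 1.99 (8.30 to 9.58). Sham6w replicate 4 had Hba-a2 at 133.62 (26.62 to 30.77), erythroid markers at 0.0945% of the reads (0.0228% to 0.0306%) and macrophage markers at 0.4416% (0.4631% to 0.4658%).

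The change with colitis differed between cell types, by a test of the difference in limma, for the 17 genes given here, up to 5 in each direction of each difference that the naming rule took. Kupffer cells minus monocyte-derived macrophages gave log2 differences of 3.18 for Fn1, 2.46 for Hmgb2, 2.28 for Ahnak, 2.24 for Hmgn2 and 1.07 for Rpl22 on the positive side. The negative ones were −3.10 for Igfbp7, −2.74 for Tnip1, −2.31 for Ctsl, −2.30 for Lyz1 and −2.26 for Tgif1. Of these 10, Hmgb2, Rpl22, Ctsl and Lyz1 passed without each of the 15 libraries in turn; the others did not pass without at least 1. Kupffer cells minus monocytes gave 1.72 for Naa15, 1.41 for Hsp90b1, −1.56 for Vsir, −1.77 for Tmem59, −1.96 for Apoe, −2.30 for Zfand3 and −2.50 for Zyx, of which Apoe passed without each library in turn.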

How the results depend on the processing

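Of the 4 counts of genes past the threshold, several moved by more than 1.5 times with the processing. For DSS against Sham6w Kupffer cells (486) the count was 241 with no filter on low values, where 21711 genes were tested, and 214 to 390 without 1 library; a pseudocount of 5, equal totals, edgeR, DESeq2 and the 8 libraries alone gave 420 to 652. For the difference from monocyte-derived macrophages (65) it was 105 with a pseudocount of 5, 28 in edgeR and 20 to 145 without 1 library, with 38 and 127 without their Sham6w replicates 1+2+5 and 4+6. For the difference from monocytes (18) it was 55 with no filter, 65 in DESeq2 and 11 to 27 without 1 library, 11 without either monocyte Sham6w replicate 1+2+5 or Kupffer cell DSS replicate 2. For DSS against CBDL6w (206) it was 115 to 228 without 1 library. Apart from the smaller number of genes or samples that a setting leaves, the cause was not tested.

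With the replicate number as a block the counts were 300, 8, 0 and 148; the 0 stands beside 676 genes at an unadjusted p under 0.05 in limma. Same-numbered Kupffer cell DSS and Sham6w libraries did not deviate together (correlations −0.0461, −0.0398, 0.0202 and −0.0464). Same-numbered DSS Kupffer cell and monocyte libraries had correlations of 0.016, 0.0251, 0.0514 and 0.0529, each positive and under 0.1, and 3 of the 4 Kupffer cell libraries correlated best with their own number. The labels do not say whether a number marks 1 animal across cell types, so the numbers are not taken to pair samples, and the 8 and 0 genes are the counts for the differences between cell types if they do.

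No named gene changed direction in a setting if it passed there or in the main comparison. Changes of direction in genes that passed in neither were not counted. In DESeq2, 137 of the 147 named genes could be compared. Of 147 named genes in the main comparison, 26 changed from passing to not passing with no filter, 20 with the block, 6 in edgeR, 4 under equal totals and 14 to 34 without 1 library. Depth limits the low genes: Birc5, Prc1, Tnf and most mitosis genes rest on few reads per library.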

Other observations

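Outside the rule for named genes, some low genes with large changes were chosen after their values were seen. Fgfr1, a fibroblast growth factor receptor, was at 0, 1.25, 0 and 0 normalized counts in the DSS libraries and 33.0, 38.8, 19.9 and 34.9 in the Sham6w libraries, 1 read against 157, and passed without each library in turn (limma, adjusted p = 0.00224). Fxyd2, a regulator of the sodium pump, was at 0 in every DSS library and at 24.5, 25.5, 22.8 and 4.98 in Sham6w, at least 6.4-fold lower in DSS with 3 reads per library as the floor (adjusted p = 0.00452). Saa2, an acute phase protein of hepatocytes, was at 7.15, 25.0, 32.9 and 26.8 in DSS and at 0 in every Sham6w library, at least 8.77-fold higher in DSS (adjusted p = 0.00831). Kcnj16, a potassium channel, was at 8.05, 0, 12.8 and 6.95 in DSS and 49.0, 22.4, 39.7 and 50.6 in Sham6w, but did not pass without Sham6w replicate 4 or DSS replicate 2.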
